A study of Mus musculus with 12 samples.

Results

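The extracellular matrix genes described here are 45 genes chosen by symbol from the 22880 features of a count table, with earlier results of these data known. The cells are 4T1, a line derived from a mammary carcinoma of the mouse and used to study metastasis to lung. They comprise 5 fibrillar collagens, 4 basement membrane collagens, 6 other collagens, 8 laminins, 4 genes of nidogens, perlecan and agrin, 10 glycoproteins, the 3 proteoglycans decorin, biglycan and versican, 3 cell-surface proteoglycans and 2 sulfatases. All 45 matched a row of the table by Ensembl identifier. RNA was sequenced in 12 libraries, 3 per group. The mock cells carried the empty plasmid pcDNA3.1, and the MYBup cells carried pcDNA3-mMyb, a plasmid with the mouse Myb gene, whose product is the transcription factor c-Myb. Untransfected cells made up the wt group. The lung3 cells were also untransfected and had been passaged through mouse lung 3 times. The labels rate the capacity of the cells to form lung metastases as normal for mock and wt, low for MYBup and high for lung3. Whether the plasmid lines are pools or clones is not stated, so an effect of Myb and a difference between 2 lines cannot be told apart. Separate cultures for the 3 replicates are not stated, so the p-values reflect only how these libraries spread, and that spread may be technical.

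The extracellular matrix is the protein scaffold that cells secrete and attach to. Epithelial cells rest on a basement membrane, a sheet built from networks of type IV collagen and of laminin, which are linked by nidogens and by the heparan sulfate proteoglycans perlecan and agrin. Stromal cells, mainly fibroblasts, make most of the fibrillar collagens and small proteoglycans of the connective tissue around it. Syndecans and glypicans carry heparan sulfate on the cell surface, and the extracellular sulfatases remove sulfate groups from it.

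The depth was between 8912989 counts (lung3 replicate 2) and 24745660 (wt replicate 2), and 11291 genes passed a low-count filter (0.676 CPM in at least 3 libraries) and were tested. Levels are given as CPM, counts scaled to library size with TMM factors, and ± stands for the SD over the 3 libraries of a group. Myb was at 5.17, 4.49 and 6.8 CPM in mock replicates 1 to 3 and at 39.3, 42.9 and 39.8 CPM in MYBup (log2 fold change 2.89, SE 0.151, adjusted p = 5.21e-08). In wt and lung3 cells its means were 4.99 ± 0.742 and 2.71 ± 0.459 CPM. The epithelial genes Krt8, Cdh1 and Epcam were expressed in all libraries. Krt8, a keratin gene, had means of 1140.7 ± 44.5, 1151.0 ± 5.43, 841.7 ± 39.8 and 740.7 ± 72.7 CPM in mock, MYBup, wt and lung3. Cdh1 (E-cadherin) had 276.7 ± 17.8, 261.0 ± 6.4, 481.2 ± 49.5 and 463.1 ± 53.8 CPM in the same order. Vim, the gene of the mesenchymal intermediate filament vimentin, had 4368.7 ± 277.3, 5614.3 ± 70.5, 3295.5 ± 112.3 and 2462.0 ± 340.7. Thus Krt8 and Vim were higher and Cdh1 lower in every library of the plasmid lines than in any other library, and the part of this in the matrix results was not tested. Of 12 fibroblast markers only Pdgfra passed the filter (means 40.9, 45.1, 26.6 and 18.1 CPM in mock, MYBup, wt and lung3), and Lum, Dpt, Tcf21 and Mfap5 had 0 counts in all libraries. The markers of that list summed to 37.4 to 48.9 CPM in mock, 39.3 to 49.5 in MYBup, 21.9 to 30.7 in wt and 16.4 to 21.8 in lung3. The endothelial marker Tie1 also passed, with means of 1.44, 0.871, 0.0298 and 0.186 CPM. Lists of 8 endothelial, 10 leukocyte and 8 lung epithelium markers summed to at most 1.85, 1.38 and 1.05 CPM in any library. Of the lung epithelium markers Foxj1 passed the filter, with means of 0.721, 0.618, 0.539 and 0.515 CPM in mock, MYBup, wt and lung3. Kdr and Cldn5, Cd3e, Adgre1, Tyrobp and Cd52, and the lung genes Sftpc, Sftpb, Sftpa1, Sftpd and Scgb3a2 were at 0 throughout. In such bulk samples, fewer cells of a type and less RNA per cell cannot be told apart.

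Some libraries stood apart in the matrix genes. Mock replicate 2 was the lowest of its group in 23 of the 32 tested members, against 38.1% of all tested genes, and MYBup replicate 1 in 24 of 32, against 44.1%. Lung3 replicate 3 was the highest of its group in 27 of 32, against 31.3% of all genes. The first 2 of these libraries also differed by transcript length. In mock replicate 2 the median deviation from the group mean was -0.127 (log2) for 3702 genes of at least 6 kb of exon and 0.154 for 1367 genes under 2 kb, and in MYBup replicate 1 it was -0.09 and 0.083. In lung3 replicate 3 the median for the long genes was 0.021. Matrix genes are long, with a median exon length of 6973 bases among tested members against 4566 among all tested genes. The part of length in the results was not tested, but a fit with the length trend removed from each library is among the alternatives, and calls that rest on these libraries are named beside each result.

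**Figure D1:**
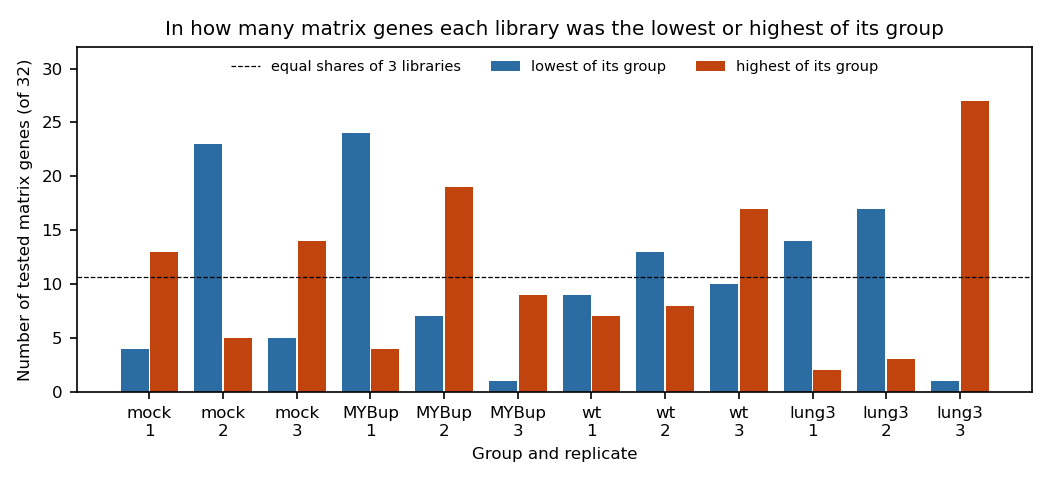
Number of tested matrix genes (of 32) in which each library had the lowest (blue) or the highest (red) CPM of the 3 libraries of its group; the dashed line marks equal shares. Mock replicate 2 and MYBup replicate 1 were lowest in 23 and 24 genes, and lung3 replicate 3 was highest in 27.

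The 4T1 cells expressed fibronectin and part of the basement membrane genes at high levels, and hardly any of the stromal fibrillar collagens of types I and III. The nidogen genes were low, with a mean of 1.05 CPM for Nid1 in wt cells. Levels between genes were compared as CPM per kb of exon. In wt cells the highest mean was that of Sdc4, which encodes the heparan sulfate proteoglycan syndecan 4, with 143.8 ± 9.68 CPM per kb. Fn1, the fibronectin gene, followed with 139.7 ± 51.0 and Thbs1, the gene of the secreted glycoprotein thrombospondin 1, with 115.5 ± 13.5. The ranges of Sdc4 and Fn1 overlapped, as did those of Fn1 and Thbs1. Fbln2 (fibulin 2) had 78.8 ± 9.98 CPM per kb, Col4a1 78.1 ± 5.06 and the laminin genes Lamb1 and Lamc1 61.0 ± 1.97 and 59.4 ± 2.49, and each of these overlapped its neighbour in the order except Col4a1, which lay above Lamb1. Col4a2, Col18a1, Lama5, Sdc1 and Gpc1 lay between 47.3 and 53.8 CPM per kb with overlapping ranges. In MYBup and lung3 cells Fn1 ranked first, with 206.3 ± 28.8 and 187.0 ± 47.0 CPM per kb, and in mock cells Sdc4 with 204.4 ± 8.08.

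Of the 45 members, 32 passed the filter and 13 did not. Lama1, the laminin alpha 1 gene, had 0 counts in all 12 libraries. The main chains of fibrillar type I and type III collagen were close to that, with 23 counts over all libraries for Col1a1, 14 for Col1a2 and 1 for Col3a1. Col5a2 and Sulf1 had 1 count each, Nid2 1, Lama4 2, Dcn (decorin) 4, Emilin1 14, Bgn (biglycan) 17, Vcan (versican) 43 and Fbln1 (fibulin 1) 54. At this depth no difference between groups could be detected for most of them. Col1a1 had 12 counts in mock and 0 in MYBup, and the fit without a filter called it lower in MYBup (adjusted p = 0.0381). Fbln1 was found mainly in wt cells, with 41 counts there against 0 in mock, 6 in MYBup and 7 in lung3. Its level in wt was at least 10.3-fold higher than in mock, taking 3 counts over the group as the floor, 4.54-fold higher than in MYBup (95% counting interval 1.92 to 13.1) and 3.22-fold higher than in lung3 (1.43 to 8.5). Biglycan had 10 counts in MYBup and 2 in mock (ratio 5.66, 1.21 to 53.1). These intervals and floors cover counting error only. Among the 32 tested members, 5 passed the filter through only some libraries: Thbs2 through the 3 MYBup libraries alone, and Col6a2, Fbn1, Postn and Nid1 through 3, 5, 8 and 11 libraries. Exons of 15 members overlap exons of other genes, and because the strand setting used in counting is unknown here, their counts are uncertain. Most of the partners are short antisense or miRNA models outside the table, such as Gm29200 for Lama3 (197 bases), Gm29233 for Thbs1 (208) and Mir7014 for Ecm1 (63).

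**Figure D2:**
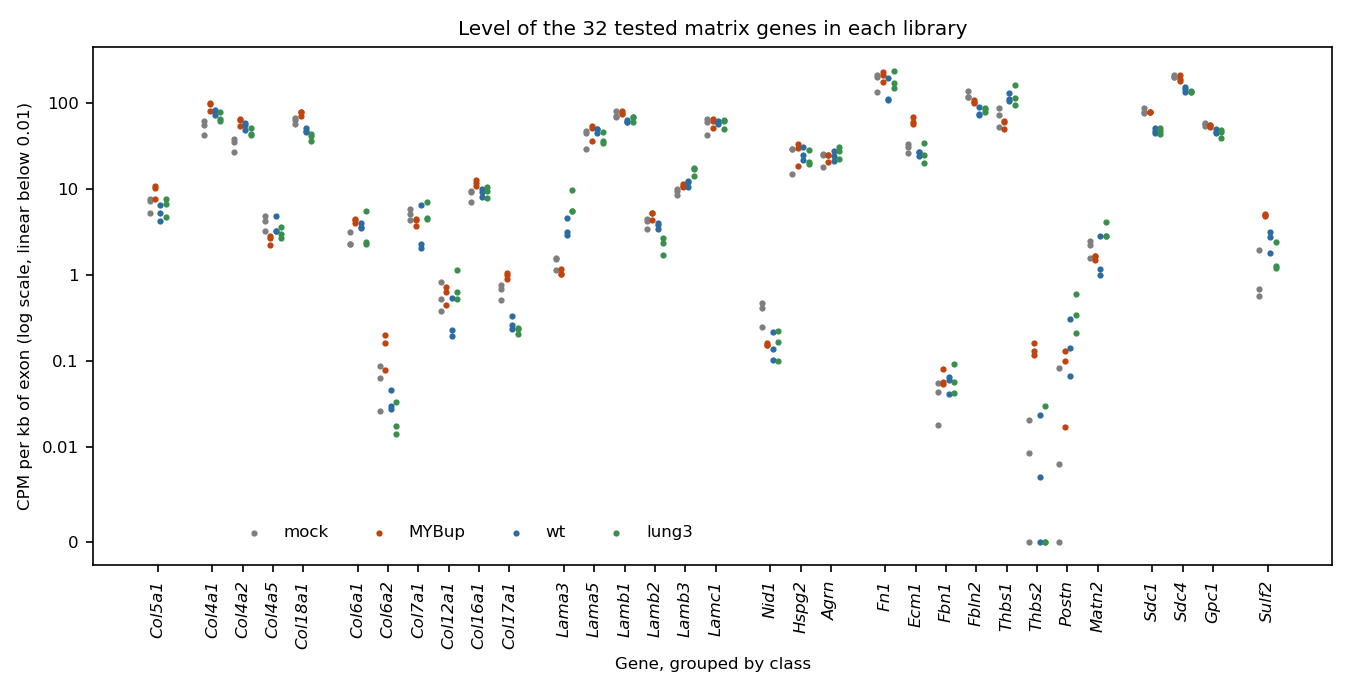
CPM per kb of exon (logarithmic axis, linear below 0.01) of the 32 tested matrix genes, grouped by class, with a point for each of the 3 libraries of mock, MYBup, wt and lung3. Col6a2, Nid1, Fbn1, Thbs2 and Postn lie below 1 CPM per kb in every library.

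MYBup was compared with mock to find genes that differ with the Myb plasmid. In MYBup cells 10 of 32 tested matrix genes were higher (31.2%) and 2 lower (6.25%), beside 14.3% and 12.6% of all tested genes, or 26.9% in either direction. Because the members were chosen with earlier results of these data known, shares of members here and below are description only. The higher members were Sulf2, Thbs2, Ecm1 and 7 collagen genes, and the lower ones were Nid1 and Col4a5. The median log2 fold change of the tested members was 0.20, against 0.001 for all tested genes. The CPM ranges of the 2 groups did not overlap for 13 of 32 members (40.6% of all tested genes). All calls are from edgeR's quasi-likelihood test with Benjamini-Hochberg adjustment over all tested genes and a threshold of 0.05. Only 6 of the 12 calls, those of Col4a1, Col4a2, Ecm1, Thbs2, Sulf2 and Nid1, were kept under every alternative run. Thbs2 passed the filter only through the MYBup libraries, so its call adds no support to these counts. The count of 10 higher members fell to 6 without mock replicate 2 or MYBup replicate 2 and to 5 without MYBup replicate 3. Of the 2 lower members 1 was left without MYBup replicate 1, mock replicate 1 or mock replicate 3.

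In lung3 cells 2 of 32 matrix genes were higher than in wt cells, Lama3 and Lamb3, and 1, Lamb2, was lower. All tested genes were called in 5.36%, with 2.91% higher and 2.44% lower. The median log2 fold change was 0.04 for members and 0.001 for all tested genes, and the CPM ranges did not overlap for 4 of 32 members (27.4% of all tested genes). For these 2 groups the replicate numbers met the rule for pairing. With the replicate number as a block 4 members were higher, with Col12a1 and Matn2 added, beside 2.71% of all tested genes called higher in that fit. That fit used all 12 libraries and also blocked mock and MYBup by number, where the numbers did not show pairing. The number of higher members fell to 0 without lung3 replicate 2 or wt replicate 1 and to 1 without lung3 replicate 1, and it rose to 4 without wt replicate 3. The lower member was lost without lung3 replicate 2 or wt replicate 1, and 2 were lower without lung3 replicate 3.

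**Figure D3:**
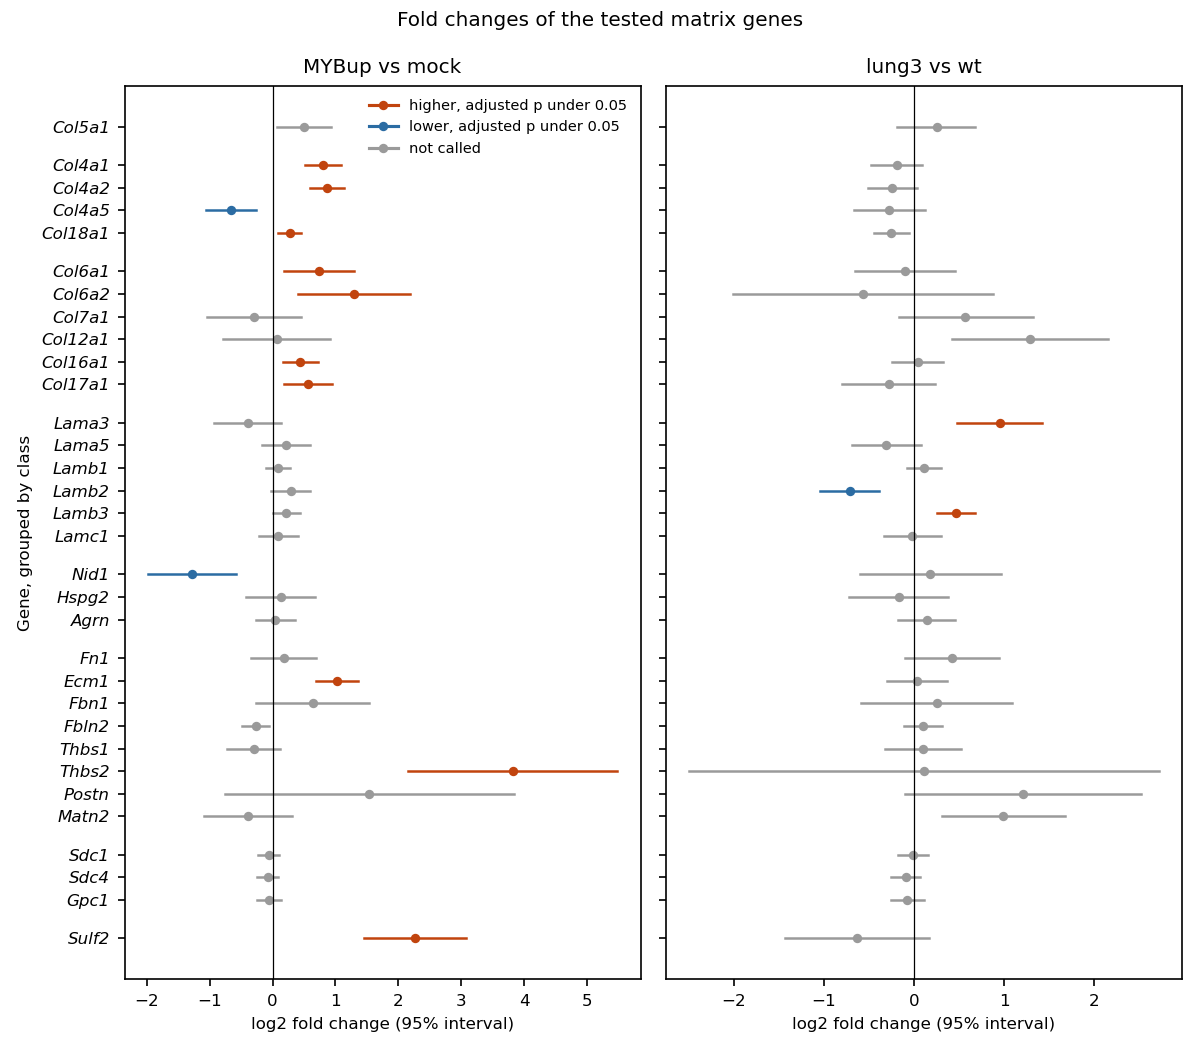
Log2 fold change with its 95% interval for each of the 32 tested matrix genes in MYBup against mock (left) and lung3 against wt (right), grouped by class; red marks members called higher, blue members called lower and grey those not called, at an adjusted p under 0.05. On the left 10 members are red and 2 blue; on the right Lama3 and Lamb3 are red and Lamb2 is blue. The horizontal axes of the panels differ.

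The basement membrane collagens were the class in which every member was called between MYBup and mock cells. Col4a1 and Col4a2 encode the alpha 1 and alpha 2 chains of the common type IV collagen network. They lie head to head on chromosome 8 (GRCm38), Col4a1 from 11198423 to 11312826 on the minus strand and Col4a2 from 11312805 to 11449287 on the plus strand. Their first exons overlap by 22 bases. That shared start is shown because the 2 genes moved together in these libraries; the overlapping bases are in capitals, written on the plus strand from RefSeq on GRCm38.p6 at chr8:11312801-11312830.
Col4a1 and Col4a2 shared start: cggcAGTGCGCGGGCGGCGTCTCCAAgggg

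Col4a1 was at 416.5, 314.3 and 459.2 CPM in mock replicates 1 to 3 and at 611.1, 739.3 and 730.6 CPM in MYBup. The MYBup libraries all lay above the mock libraries, 0.81 on the log2 scale (SE 0.133, adjusted p = 0.000719). Col4a2 was at 231.2, 180.5 and 254.4 CPM in mock and at 353.4, 432.3 and 422.9 CPM in MYBup, 0.86 on the log2 scale (SE 0.127, adjusted p = 0.000318). The wt libraries, with 613.9, 594.0 and 540.9 CPM of Col4a1 and 383.9, 365.6 and 319.7 CPM of Col4a2, lay close to MYBup rather than to mock. Col4a1 and Col4a2 were lower in mock than in wt cells (log2 fold changes -0.56 and -0.68, adjusted p = 0.00568 and 0.00113). Against wt, MYBup had log2 fold changes of 0.25 (95% interval -0.03 to 0.54, adjusted p = 0.151) and 0.18 (-0.09 to 0.45, adjusted p = 0.285). The comparisons share their mock, MYBup and wt libraries, so these values are set side by side and are not independent. With mock replicate 2 and MYBup replicate 1 both left out, Col4a1 and Col4a2 were called higher in MYBup than in wt (adjusted p = 0.017 and 0.0442). That alternative was chosen after seeing the data. MYBup replicate 1 was the lowest MYBup library for both genes, so leaving it out raised the MYBup mean, and these calls add no support.

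Col18a1, which encodes the chain of collagen XVIII and with it the precursor of endostatin, was graded over the groups. Its CPM values were 474.8, 398.3 and 445.6 in mock, 495.7, 546.4 and 548.7 in MYBup, 358.9, 333.2 and 326.1 in wt and 290.2, 255.5 and 309.2 in lung3. MYBup exceeded mock by 0.27 on the log2 scale (SE 0.0894, adjusted p = 0.0389), and mock exceeded wt by 0.37 (adjusted p = 0.00574). The first of these calls was lost under 11 of 22 alternatives, among them leaving out MYBup replicate 2 or 3, mock replicate 2 or 3, or wt replicate 1 or 2 (adjusted p up to 0.183). The lung3 libraries lay below the wt libraries without overlap, but the difference was not called (-0.25, adjusted p = 0.124). With the replicate block the adjusted p was 0.174 in 12 libraries and 0.0204 in the 6 libraries compared.

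Col4a5, an X-linked gene for a type IV collagen chain of another network, moved the other way. It was at 28.2, 21.7 and 32.8 CPM in mock and 15.1, 18.2 and 18.9 CPM in MYBup, and its wt libraries had 21.7, 22 and 32.7 CPM. MYBup was below mock (log2 fold change -0.66, SE 0.185, adjusted p = 0.018) and below wt (-0.54, adjusted p = 0.0324). The call against mock was lost without mock replicate 1, mock replicate 3 or MYBup replicate 1 (adjusted p up to 0.0668). The call against wt was lost without wt replicate 3 or any of the 3 MYBup libraries (adjusted p up to 0.161).

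Of the 6 other collagens, 4 were higher in MYBup than in mock cells: Col6a1, Col6a2, Col16a1 and Col17a1. Col6a1 encodes a chain of the microfibrillar collagen VI and stood at 9.96, 9.91 and 13.8 CPM in mock and 17.4, 19.7 and 18.9 CPM in MYBup (log2 fold change 0.74, SE 0.259, adjusted p = 0.0497). Its partner chain gene Col6a2 was near the filter, with 26 counts in mock and 57 in MYBup, a ratio of 2.48 (95% counting interval 1.53 to 4.11). The fit gave it a log2 fold change of 1.29 (adjusted p = 0.0335), although its groups overlapped. Col6a3, the gene of another chain of this collagen, had 14 counts over all libraries.

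Col16a1, whose product is a fibril-associated collagen, was at 61.4, 48.1 and 64.6 CPM in mock and 72.6, 85.5 and 79.1 CPM in MYBup (0.44, SE 0.13, adjusted p = 0.0221). Col17a1, the gene of a transmembrane collagen of hemidesmosomes, the junctions that anchor epithelial cells to the basement membrane, was at 4.6, 4.14 and 3.07 CPM in mock and 5.3, 5.99 and 6.24 CPM in MYBup (0.56, SE 0.181, adjusted p = 0.0339). Neither pair of groups overlapped. Col17a1 was also higher in mock than in wt cells, where it was at 1.65 ± 0.313 CPM (1.26, adjusted p = 0.000368).

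All 4 of these calls ended under some alternatives. That of Col6a1 was lost without any of the MYBup or wt libraries or without mock replicate 1 or 2 (adjusted p up to 0.159), and that of Col6a2 without MYBup replicate 2 or 3 or mock replicate 2 or 3 and with DESeq2 (up to 0.189). That of Col16a1 was lost without MYBup replicate 2 or 3 or mock replicate 2 (up to 0.0848), and that of Col17a1 without MYBup replicate 2 or 3 or mock replicate 3 and with DESeq2 (up to 0.119). Col5a1, the only member of the fibrillar collagen class above the filter, had 57.3 ± 10.7 CPM in mock and 81.1 ± 14.3 in MYBup and was not called (0.50, adjusted p = 0.0815). It was higher in MYBup than in wt cells (0.83, adjusted p = 0.00612). Between lung3 and wt cells edgeR called 0 of the 11 tested collagen members, with 2 at an unadjusted p under 0.05. DESeq2 and limma voom each also called 0. Other fits did call collagens there. Col12a1 was called higher with the replicate block (adjusted p = 0.0164 in 12 libraries and 2.13e-05 in the 6 compared), without a filter (0.0261) and with the length trend removed (0.0343). The block in the 6 libraries also called Col7a1 higher (0.70, adjusted p = 0.00253) and Col18a1 lower. With the block in 12 libraries Col7a1 and Col18a1 were not called (adjusted p = 0.0628 and 0.174). With mock replicate 2 and MYBup replicate 1 both left out, an alternative chosen after seeing the data, Col12a1 and Col18a1 were called as well (0.0488 and 0.0465).

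**Figure D4:**
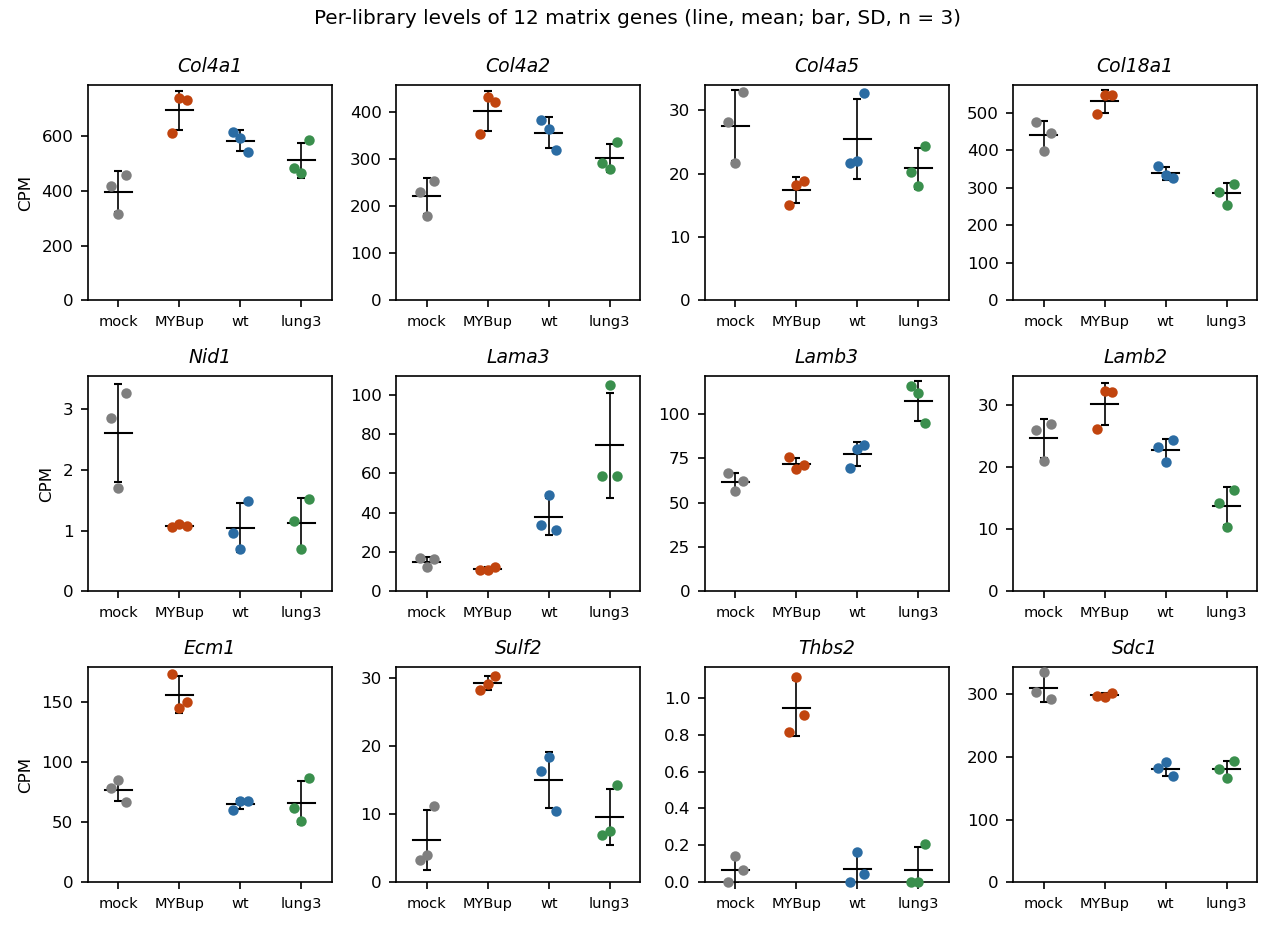
CPM of 12 matrix genes in each library, with a horizontal line at the group mean and a bar for the SD (n = 3). The MYBup points of Ecm1, Sulf2, Thbs2 and Col18a1 lie above those of all other groups. Col4a1 and Col4a2 are lowest in mock, Lama3 and Lamb3 are highest in lung3, and Sdc1 is higher in mock and MYBup than in wt and lung3.

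In Ecm1, Thbs2 and Sulf2, all higher in MYBup than in mock cells, the MYBup libraries lay above every library of the other 3 groups. The same held for Col16a1, Col17a1 and Col18a1. The share of all tested genes with this pattern was not counted. Ecm1 (chromosome 3, 95734147 to 95739569) encodes extracellular matrix protein 1, a secreted glycoprotein. Sulf2 (chromosome 2, 166073089 to 166155663) encodes an endosulfatase that removes 6-O-sulfate from heparan sulfate. Promoter sequences are shown for Sulf2, which had the largest fold change of the members well above the filter, and for Ecm1 and Col6a1, the 2 higher members whose RefSeq window holds a Myb hexamer. Each runs from 250 bases before the RefSeq start to 30 bases after it, on the gene's own strand (minus), from GRCm38.p6. Capitals mark Myb hexamers on either strand, which are the motif TAACGG, the motif TAACTG, the motif CAACGG and the motif CAACTG. The regions are chr2:166155654-166155933 for Sulf2, chr3:95739540-95739819 for Ecm1 and chr10:76726015-76726294 for Col6a1.
Sulf2: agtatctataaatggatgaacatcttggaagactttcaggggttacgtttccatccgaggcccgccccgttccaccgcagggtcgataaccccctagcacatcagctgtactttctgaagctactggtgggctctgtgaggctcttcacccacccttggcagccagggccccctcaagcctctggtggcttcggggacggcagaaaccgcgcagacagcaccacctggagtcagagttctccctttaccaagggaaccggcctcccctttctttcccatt
Ecm1: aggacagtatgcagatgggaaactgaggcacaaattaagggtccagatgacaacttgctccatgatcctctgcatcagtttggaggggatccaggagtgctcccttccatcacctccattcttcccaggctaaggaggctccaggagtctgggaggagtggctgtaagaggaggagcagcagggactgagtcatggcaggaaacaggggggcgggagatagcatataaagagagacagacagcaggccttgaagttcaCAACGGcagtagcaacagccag
Col6a1: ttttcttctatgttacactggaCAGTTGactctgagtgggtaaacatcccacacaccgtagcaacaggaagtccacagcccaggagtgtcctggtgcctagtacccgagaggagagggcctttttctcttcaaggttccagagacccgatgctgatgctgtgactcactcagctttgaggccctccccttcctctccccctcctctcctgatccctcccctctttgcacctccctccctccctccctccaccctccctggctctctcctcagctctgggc
The Ecm1 match is CAACGG at position 9 counted from the start, inside the first exon, and the Col6a1 match is the reverse complement of CAACTG at position -228. A match describes the letters only. Windows of 300 bases with a Myb hexamer made up 28.3% of 32851 RefSeq windows, 8 of 38 windows of 31 members (21.1%) and 2 of the 13 windows of the 10 members higher in MYBup. Nid1 and Col4a5, the members lower in MYBup, each also have a window with a Myb hexamer, TAACTG at positions -230 and -118.

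Ecm1 was at 78.7, 84.9 and 66.7 CPM in mock and at 173.6, 145.3 and 150.7 CPM in MYBup. The log2 fold change was 1.03 (SE 0.154, adjusted p = 0.000355), and against wt cells, with 60.6, 68.2 and 67.7 CPM, it was 1.26 (adjusted p = 5.77e-05). Between mock and wt it was not called (0.23, 95% interval -0.10 to 0.56, adjusted p = 0.265). Ecm1 therefore differed from both reference groups in the same direction.

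Sulf2 was at 3.32, 3.99 and 11.3 CPM in mock, 28.3, 29.2 and 30.3 in MYBup, 16.3, 18.5 and 10.5 in wt and 6.98, 7.51 and 14.3 in lung3. MYBup exceeded mock by 2.26 on the log2 scale (SE 0.378, adjusted p = 0.000772), and mock was itself below wt (-1.31, adjusted p = 0.0164). Against wt the log2 fold change in MYBup was 0.95 (adjusted p = 0.041). This last call was lost with DESeq2 and without any of the MYBup libraries, wt replicate 1, wt replicate 3 or lung3 replicate 2 (adjusted p up to 0.136), and the lower level in mock was lost without mock replicate 1 or wt replicate 2 (up to 0.0774). Exons of Sulf2 and of Ncoa3 on the other strand share 154 bases, so the counts of Sulf2 are uncertain. Its paralogue Sulf1 had 1 count in all.

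Thbs2, the gene of thrombospondin 2, an inhibitor of vessel growth, was near the limit of detection. It had 3 counts over the mock libraries, 42 over MYBup, 5 over wt and 3 over lung3. The ratio of MYBup to mock was 15.8 (95% counting interval 5.06 to 79.9, adjusted p = 0.00275), and even in MYBup the level was 0.943 ± 0.151 CPM. Because only the MYBup libraries carried it past the filter, it had to differ to be tested. Its relative Thbs1 was lower in the plasmid lines, at 440.0, 318.4 and 537.0 CPM in mock and 301.2, 378.1 and 370.0 in MYBup against 636.2, 674.5 and 793.6 in wt. Thbs1 had a log2 fold change of -0.70 in mock (adjusted p = 0.0139, and 0.0554 without wt replicate 3) and -1.0 in MYBup (adjusted p = 0.00167), both against wt. It was not called between MYBup and mock (-0.30, adjusted p = 0.275).

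Nid1, the gene of nidogen 1, was the member with the largest decrease in MYBup cells. It was at 2.85, 1.71 and 3.27 CPM in mock and 1.06, 1.11 and 1.07 CPM in MYBup (log2 fold change -1.28, SE 0.326, adjusted p = 0.0109). The wt libraries, with 0.954, 0.702 and 1.49 CPM, lay at the MYBup level, and mock was higher than wt (1.34, adjusted p = 0.00442). Between MYBup and wt the log2 fold change was 0.056 (95% interval -0.71 to 0.82, adjusted p = 0.914). Exons of Nid1 and of the antisense model Gm48682 overlap by 143 bases. Hspg2 (perlecan) and Agrn (agrin) were expressed at 215.3 to 471.5 and 168.5 to 287.8 CPM over all libraries. Neither was called in any comparison of groups. For Hspg2 the log2 fold change between MYBup and mock was 0.13 with a 95% interval from -0.42 to 0.68, and for Agrn it was 0.047 (-0.27 to 0.36).

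All 3 members called between lung3 and wt cells were laminins. Whether this class differed more than the others was not tested. Laminins are trimers of an alpha, a beta and a gamma chain. Lama3 and Lamb3 encode an alpha and a beta chain of the laminin found at hemidesmosomes, whereas Lama5, Lamb1 and Lamc1 encode the chains of a laminin common to most epithelial basement membranes. Lama3 was at 33.8, 49.1 and 31.4 CPM in wt and 58.9, 105.1 and 58.9 CPM in lung3, without overlap (log2 fold change 0.95, SE 0.218, adjusted p = 0.0226). Lamb3 was at 69.5, 80.2 and 82.4 CPM in wt and 115.6, 111.8 and 94.7 CPM in lung3 (0.47, SE 0.0962, adjusted p = 0.0129). The lung3 libraries of Lamb3 all lay above the wt libraries.

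Lamb2, the beta 2 chain gene (chromosome 9, 108479736 to 108490530), was the member called lower in lung3 cells. It was at 23.2, 20.9 and 24.3 CPM in wt and 14.3, 10.4 and 16.4 CPM in lung3 (log2 fold change -0.71, SE 0.15, adjusted p = 0.0147). The 3 laminin calls were also made with the replicate block (adjusted p = 0.00147 for Lama3, 0.031 for Lamb3 and 0.0145 for Lamb2), by DESeq2 and by limma voom. Each was lost without lung3 replicate 2 or wt replicate 1. That of Lama3 was also lost without wt replicate 3 and that of Lamb3 without lung3 replicate 1. The adjusted p then reached 0.114 for Lama3, 0.0732 for Lamb3 and 0.0592 for Lamb2. Lama5, Lamb1 and Lamc1 were not called between lung3 and wt, with log2 fold changes of -0.31 (95% interval -0.69 to 0.08), 0.11 (-0.08 to 0.30) and -0.017 (-0.33 to 0.30). With the block in the 6 libraries compared, Lama5 was called lower (adjusted p = 0.00667), but not with the block in 12 libraries (0.364).

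In the plasmid lines Lama3 was low. Mock had 16.9, 12.2 and 16.3 CPM and MYBup 11.1, 10.9 and 12.6 CPM, all below every wt library. Lama3 was lower than in wt cells by a log2 fold change of -1.33 in mock (adjusted p = 0.000734) and -1.72 in MYBup (adjusted p = 0.000144). Lamb3 was lower than in wt in mock (-0.32, adjusted p = 0.0195) but was not called in MYBup (-0.10, adjusted p = 0.417). The Lamb3 call in mock ended without mock replicate 2, wt replicate 2 or wt replicate 3 (adjusted p up to 0.08). Between MYBup and mock edgeR called 0 of 6 tested laminins (adjusted p from 0.114 to 0.683), with 1 at an unadjusted p under 0.05, and DESeq2 and limma voom each called 0. Lamb1 was higher in MYBup than in wt (0.35, adjusted p = 0.00649) and in mock than in wt (0.27, adjusted p = 0.0275). The latter call was lost without mock replicate 1, wt replicate 1 or wt replicate 3 (up to 0.128). Lamb2 was higher in MYBup than in wt (0.41, adjusted p = 0.036), a call lost without MYBup replicate 2 or 3 or wt replicate 1 or 2 (up to 0.12).

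Other members had higher means in lung3 than in wt cells without passing edgeR's test over 12 libraries, but were called in other fits. Col12a1, the gene of a fibril-associated collagen, was at 3.45, 2.93 and 8.25 CPM in wt and 8.0, 9.58 and 17.5 CPM in lung3 (log2 fold change 1.29, SE 0.402, adjusted p = 0.0823, and 0.0164 with the replicate block). Matn2, the gene of the adaptor protein matrilin 2, was at 7.27, 6.2 and 17.6 CPM in wt and 17.8, 17.6 and 25.6 CPM in lung3 (0.99, adjusted p = 0.0871, and 0.0144 with the block). Matn2 was called by DESeq2 (adjusted p = 0.0277), by limma voom (0.0443) and without a filter (0.0312). In both genes replicate 3 was the highest library of wt and of lung3, and the groups overlapped. Exons of Matn2 and 9430069I07Rik overlap by 70 bases. Fn1 showed the same order, with 1285.2, 1290.8 and 2319.8 CPM in wt and 1733.8, 2025.4 and 2795.9 CPM in lung3, and was not called (0.42, 95% interval -0.10 to 0.94, adjusted p = 0.344, and 0.163 with the block in 12 libraries). With the block in the 6 libraries compared it was called higher (0.45, adjusted p = 0.00074).

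Postn, the gene of periostin, a matrix protein that binds integrins, was variable within every group. It was at 0.0, 0.0713 and 0.719 CPM in mock, 1.14, 0.148 and 0.853 in MYBup, 1.23, 0.578 and 2.64 in wt and 1.82, 3.0 and 5.2 in lung3. The counts summed to 126 in lung3 and 12 in mock, a ratio of 14.4 (95% counting interval 7.94 to 28.5). This interval covers counting error only and not the spread between libraries. These are the groups with the highest and the lowest mean, and no test compared them. Between lung3 and wt Postn was called higher with the block in the 6 libraries compared (1.17, adjusted p = 0.00908). It was not called over 12 libraries, with the block (0.168) or without it (0.278). Postn was called lower in mock than in wt (adjusted p = 0.0415), although the groups overlapped. That call ended with DESeq2 and without mock replicate 1 or 2, wt replicate 1 or 3, MYBup replicate 3 or lung3 replicate 2 (adjusted p up to 0.163).

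Of the 3 cell-surface proteoglycans, Sdc1 and Sdc4 were higher in both plasmid lines than in wt cells, and Gpc1 was called in mock. Sdc1, the syndecan 1 gene, was at 303.8, 336.2 and 292.9 CPM in mock, 297.6, 296.7 and 302.1 in MYBup, 182.0, 193.0 and 169.3 in wt and 180.6, 167.2 and 193.7 in lung3. The 6 libraries of the plasmid lines all lay above the 6 others. Sdc1 was higher than in wt by a log2 fold change of 0.78 in mock (SE 0.0791, adjusted p = 1.85e-05) and 0.72 in MYBup (adjusted p = 2.45e-05). Sdc4 had 520.5 ± 20.6 CPM in mock, 494.5 ± 36.6 in MYBup, 366.2 ± 24.7 in wt and 344.1 ± 4.99 in lung3, with log2 fold changes against wt of 0.51 (adjusted p = 0.000265) and 0.43 (adjusted p = 0.000758). Gpc1, the glypican 1 gene, was higher in mock than in wt (0.26, adjusted p = 0.0263), a call lost without mock replicate 1 or 2 or wt replicate 2 or 3 (up to 0.0787). In MYBup against wt it was not called (0.21, adjusted p = 0.0656), whereas DESeq2 called it (0.0366). Exons of Gpc1 overlap those of Ankmy1 by 977 bases. Between MYBup and mock edgeR called 0 of these 3 genes, with 0 at an unadjusted p under 0.05 and 0 by DESeq2 or limma voom. The 95% intervals of the log2 fold change were -0.23 to 0.11 for Sdc1, -0.24 to 0.09 for Sdc4 and -0.24 to 0.13 for Gpc1.

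The mock and wt cells, which by the labels differ in the empty plasmid, differed in many genes, matrix genes among them. In mock cells 8 of 32 members were higher (25%) and 7 lower (21.9%), beside 18.0% and 17.9% of all tested genes, 35.9% in all. The 8 higher ones were Col17a1, Col18a1, Lamb1, Nid1, Fbln2, Sdc1, Sdc4 and Gpc1, and the 7 lower ones were Col4a1, Col4a2, Lama3, Lamb3, Thbs1, Postn and Sulf2. Fbln2 was at 796.3 ± 72.6 CPM in mock, 661.6 ± 31.5 in MYBup and 501.8 ± 63.6 in wt. It was higher than in wt by 0.67 in mock (adjusted p = 0.000233) and 0.40 in MYBup (adjusted p = 0.00635). Between MYBup and mock the groups did not overlap, but its difference fell short of the threshold in edgeR (-0.27, adjusted p = 0.0573). DESeq2 called it lower (0.0323). The number of lower members fell to 4 without wt replicate 3. Pdgfra, the fibroblast marker that was expressed, was also higher in mock and MYBup than in wt, as was the endothelial marker Tie1, whose list summed to 1.77 to 1.85 CPM in mock, 0.733 to 1.49 in MYBup and 0.288 to 0.62 in wt. Tie1, with means of 0.0298 CPM in wt and 0.186 in lung3, passed the filter only through the plasmid lines, so it had to be higher there. The part of Pdgfra and Tie1 in these differences was not tested. The other fibroblast collagens Col1a1, Col1a2 and Col3a1 were at or near 0.

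In MYBup against wt cells 13 members were higher (40.6%) and 3 lower (9.38%), beside 19.4% and 18.7% of all tested genes, 38.2% in all. The higher ones were Col5a1, Col18a1, Col6a2, Col16a1, Col17a1, Lamb1, Lamb2, Ecm1, Fbln2, Thbs2, Sdc1, Sdc4 and Sulf2. Lama3, Thbs1 and Col4a5 were the lower ones. Among the higher ones, Thbs2 passed the filter only through the MYBup libraries, and Col6a2 through 3 libraries, none of them wt. Their calls therefore add no support to these counts. Col4a1, Col4a2 and Col6a1, which were higher in MYBup than in mock, were not called against wt; both comparisons use the MYBup libraries. Col16a1 had 0.37 against wt (adjusted p = 0.037), which was lost without MYBup replicate 2 or 3 or wt replicate 1 or 2 (up to 0.142).

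The 2 main comparisons share no library, and their difference was tested as a contrast, MYBup minus mock less lung3 minus wt. It was called for 8 of 32 members (25%), 6 higher and 2 lower, beside 19.9% of all tested genes, 10.4% higher and 9.52% lower. Sulf2 had the largest value, 2.89 (SE 0.528, adjusted p = 0.00226), followed by Col4a2 with 1.1 and Col4a1, Ecm1 and Lamb2 with 1.0 each. Col18a1 had 0.52 (adjusted p = 0.0116). Lama3 had -1.35 (adjusted p = 0.0122) and Matn2 -1.38 (adjusted p = 0.0473), the latter lost under 12 of 20 alternatives. Without wt replicate 3 the number called was 13.

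Ratios between chain genes were compared next, first for chains that assemble together. The ratio of Col4a1 to Col4a2, per exon length, lay between 1.42 and 1.60 in all 12 libraries, although the level of either gene differed between groups. The ratio of Lamb1 to Lamc1 ran from 1.02 to 1.62, and that of Lama5 to Lamc1 from 0.555 to 0.859. The ratio of Lamb3 to Lama3 ran from 6.2 to 7.55 in mock, 9.14 to 11.1 in MYBup, 2.65 to 4.27 in wt and 1.73 to 3.19 in lung3. Lama3 and Lama5 encode alternative alpha chains, and Lamb2 and Lamb1 alternative beta chains. The ratio of Lama3 to Lama5 was 0.0186 to 0.0386 in the plasmid lines, 0.0588 to 0.103 in wt and 0.12 to 0.283 in lung3, so that the 3 sets of libraries did not overlap. The ratio of Lamb2 to Lamb1 was 0.0245 to 0.0394 in lung3 and 0.0506 to 0.068 in the other groups. For the collagen VI chains, which assemble together, the ratio of Col6a1 to Col6a2 was 21.8 to 164.4. It rests on few counts of Col6a2, with 2, 1 and 4 in the lung3 libraries and 5, 6 and 8 in wt. A ratio shows unequal levels of 2 transcripts and not which of them changed.

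Genes outside the 45 members were taken from 4 lists of matrix and matrix-related genes. These lists too were chosen with earlier results of these data known, so their counts are description only. Exon overlaps were looked up for the members only. Of 100 other matrix genes 24 were tested. In MYBup against mock 5 of them were higher and 6 lower (median log2 fold change -0.17), beside 14.3% and 12.6% of all tested genes. Sdc3 (syndecan 3) rose from 24.0 ± 6.27 to 97.9 ± 6.6 CPM, Npnt (nephronectin) from 84.9 ± 34.1 to 209.0 ± 12.3 and Mgp (matrix Gla protein) from 2.23 ± 1.24 to 9.38 ± 1.38. Their log2 fold changes were 2.03, 1.30 and 2.08 (adjusted p = 1.21e-05, 0.000844 and 0.00139). Col2a1 was at 0.782 ± 0.0692 CPM in mock and at 0 in MYBup (adjusted p = 0.000111), and Tnxb fell by 1.39 and Ntn4 by 1.23, the latter lost without mock replicate 1 or any MYBup library (adjusted p up to 0.0967).

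In lung3 against wt 3 of the other matrix genes were higher and 3 lower, beside 2.91% and 2.44% of all tested genes. Igfbp7 rose from 23.3 ± 7.64 to 55.0 ± 5.58 CPM (log2 fold change 1.25, adjusted p = 0.00257), and Ltbp2, a latent TGF-beta binding protein gene, rose by 0.63. Mgp, which was higher in MYBup than in mock, fell from 7.02 ± 2.57 to 1.37 ± 0.857 CPM in lung3 (-2.28, adjusted p = 0.0076). Ltbp3 fell by 0.78 and Ltbp4 by 0.81. Col8a1 had 0.41 (adjusted p = 0.0354, and 0.0697 with the replicate block). The call of Ltbp4 ended without lung3 replicate 2 or 3 or wt replicate 1 or 2 (up to 0.142), and that of Col8a1 without any wt library, lung3 replicate 1 or 2 or MYBup replicate 2 or 3 (up to 0.141).

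Of 26 genes for the folding and processing of collagen 21 were tested. Of these 10 were higher and 2 lower in MYBup than in mock (median 0.21), beside 14.3% and 12.6% of all tested genes. Fkbp14, an endoplasmic reticulum prolyl isomerase gene, had a log2 fold change of 1.36, the collagen galactosyltransferase gene Colgalt1 0.70 (157.6 ± 11.6 to 256.4 ± 5.72 CPM, adjusted p = 4.15e-05) and the procollagen protease gene Adamts14 0.70. P3h4 and P3h3, of the prolyl 3-hydroxylase family, were lower both in MYBup than in mock (-1.95 and -0.83) and in lung3 than in wt (-2.16 and -0.96). In lung3 against wt 3 of the 21 were higher and 3 lower, beside 2.91% and 2.44% of all tested genes. P3h2 rose by 1.15 and the prolyl 4-hydroxylase gene P4ha2 by 1.05, from 11.4 ± 2.15 to 23.6 ± 1.23 CPM (adjusted p = 0.00066). Bmp1, which encodes a procollagen C-proteinase, fell by 0.46. Plod2, a lysyl hydroxylase gene, had 0.52 (adjusted p = 0.0402), a call lost under 10 of 22 alternatives, including leaving out any lung3 library, wt replicate 1 or 2, MYBup replicate 2 or 3 or mock replicate 1 (up to 0.188). The P3h4 call in lung3 was lost without lung3 replicate 2 (0.0502).

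Of 22 genes of heparan sulfate synthesis 16 were tested. Of these 2 were higher and 2 lower in MYBup than in mock, beside 14.3% and 12.6% of all tested genes. Extl2 rose by 0.47 and Extl3 by 0.39, and Hs3st1, a 3-O-sulfotransferase gene, fell by 1.29 and Glce by 0.39. The call of Extl3 ended without MYBup replicate 3 and that of Glce without mock replicate 1 (adjusted p up to 0.0809 and 0.095). In lung3 the polymerase gene Ext1 rose by 0.47, and Hs3st1 fell by 2.08 from 0.944 ± 0.192 to 0.218 ± 0.0668 CPM. Of 20 matrix receptors 17 were tested. Of these 4 were higher and 3 lower in MYBup than in mock, beside 14.3% and 12.6% of all tested genes. In lung3 against wt 1 was higher, beside 2.91% of all tested genes. The collagen receptor gene Itga2 (integrin alpha 2) fell from 125.2 ± 52.8 to 48.0 ± 14.2 CPM in MYBup (-1.38, adjusted p = 0.00436), and Itgb5 fell by 0.53 and Itga1 by 0.87. Itgb6, an epithelial integrin gene, was higher in MYBup than in mock (1.2, adjusted p = 0.0166) and in lung3 than in wt (1.25, adjusted p = 0.0125). Ddr2, a receptor tyrosine kinase for collagen, had 0.53 and Itgb1 0.28. The calls of Ddr2 and Itgb1 were lost without MYBup replicate 2 or 3 or mock replicate 1, and that of Ddr2 also without mock replicate 2 (adjusted p up to 0.0889 and 0.18). Those of Itga1 ended without MYBup replicate 1 or mock replicate 1 or 3 (0.0696), and those of Itgb6 without MYBup replicate 2 in MYBup (0.0645) and without wt replicate 1 or 2 in lung3 (0.0641).

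The promoter windows of the members were also searched for 3 general motifs on both strands, with 300 bases per RefSeq window. GGGCGG, the GC box, was in 25 of 38 member windows (65.8%) and in 35.7% of all 32851 windows. CCAAT was in 16 member windows (42.1%, against 37.4% of all) and TATAAA in 6 (15.8%, against 13.6%). The Ecm1 window holds both TATAAA, at position -27, and GGGCGG, at position -42. Windows overlap where a gene has several starts, and those of Col4a1 and Col4a2 share 78 bases, so windows are not independent.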

How the data were processed

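The deposited table holds raw read counts per gene for 12 libraries, not normalised, per its values. The submitters' processing notes name STAR, edgeR and GRCm38. Versions, counter, annotation and strandedness: not given in the sources used here. Per the labels' protocols, RNA was column-purified and libraries were made with a TruSeq kit. The 2708 values over 4 digits are rounded to 4 significant digits by the authors. Of 22880 features, 22570 matched GENCODE M21 (GRCm38), which gave symbols, coordinates, exon lengths and overlaps, and 7336 had 0 counts throughout. Promoters are RefSeq windows on GRCm38.p6.

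Tests used edgeR 4.0.16 in R 4.3.3 (quasi-likelihood, TMM, filterByExpr with a minimum count of 10, a CPM cutoff of 0.676, all 12 libraries, a term per group), with Benjamini-Hochberg adjustment over 11291 genes and a threshold of 0.05. SE was taken as |log2 fold change| over the root of F. DESeq2 1.42.0, limma 3.58.1 (voom), other scalings, filters, blocks and left-out libraries were alternatives. Scripts were tested on simulated data. Replicates differed by more than sampling noise (chi-square per gene 2.29 to 36.9), so none was merged. As a check of pairing, deviations from group means were correlated: lung3 and wt libraries of the same number had 0.387, 0.318 and 0.299, those of unlike numbers -0.213 to -0.116. The labels state no pairing, so it rests on these values.

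Members and lists were chosen with earlier results of these data known. All members could be named; outside them, Myb, overlapping genes and up to 3 called genes each way per list. Lists of fibroblast, endothelial, leukocyte and lung epithelium markers were summed. Col6a3 was added as the chain partner of Col6a1 and Col6a2. Epithelial genes, Vim, Tie1, Foxj1 and markers at 0 were named for the check of cell types. A gene that the naming rule covers is not reported here.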

Additional observations from a re-analysis of the deposited data

How the results depend on the processing

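Of the 54 calls of single matrix genes over the 5 contrasts, 34 were kept under all alternatives run, 20 were lost under at least 1 and 0 reversed. Between MYBup and mock, 6 of 12 calls were kept; between lung3 and wt, 0 of 3; between mock and wt, 9 of 15; between MYBup and wt, 12 of 16; and for the difference of effects, 7 of 8. The kept calls include those of Thbs2 against mock and wt, a gene that passed the filter only through the MYBup libraries. The causes of the changes were not tested, except where fewer members or libraries entered by construction. With the replicate block in the 6 libraries compared, MYBup against mock gave 1479 genes and 6 higher members, and lung3 against wt gave 1985 genes, 7 higher and 3 lower members, against 605 genes, 2 and 1 without it. With the block in 12 libraries lung3 against wt had 4 higher members. MYBup and mock libraries of the same number correlated at -0.228, -0.578 and 0.451 and those of unlike number at up to 0.702. Not every library therefore correlated best with its own number, and these values do not show a pairing of MYBup and mock. The block fits still grouped MYBup and mock libraries by number. In 12 libraries this grouping also enters the estimate of spread behind the blocked lung3 against wt values. Blocked fits within mock and wt or MYBup and wt exist for 6 libraries only. DESeq2 called 919 genes in lung3 against wt, and no filter gave 4 higher members there. Without mock replicate 3 and lung3 replicate 3, 1 member was lower in MYBup than in mock and 3 in lung3 than in wt. Without mock replicate 2 and MYBup replicate 1, an alternative chosen after seeing the data, lung3 against wt had 1068 genes and 2 lower members. Members without exon overlap gave 6 higher and 1 lower in MYBup against mock, 1 higher in lung3 against wt, 2 lower in mock against wt, 1 lower in MYBup against wt and 2 for the difference of effects. Leaving out each library in turn gave 5 to 10 higher and 1 to 3 lower members in MYBup against mock. For lung3 against wt it gave 237 to 853 genes (237 without wt replicate 1, 268 without wt replicate 2, 294 without lung3 replicate 2), 0 to 4 higher and 0 to 2 lower members. It gave 4 to 9 lower members in mock against wt and 7 to 13 members for the difference of effects. With the length trend removed from each library, also chosen after seeing the data, Col5a1 was called higher (0.54, adjusted p = 0.0356) and Fbln2 lower (-0.25, adjusted p = 0.0469) in MYBup against mock, and Col12a1 higher in lung3 against wt (1.29, adjusted p = 0.0343). Depth limits the members with few counts (Thbs2, Col6a2, Fbn1 and the 13 not tested).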
